A study of Mus musculus with 20 samples.

Results

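Among the cells purified from 4T1.2 mammary tumors, 64 of 10885 carried at least 5 corrected counts each of *Ctsk* and *Acp5* and are described here as osteoclast-like cells. *Ctsk* encodes cathepsin K, the collagen-degrading protease of osteoclasts, and *Acp5* encodes tartrate-resistant acid phosphatase, the enzyme behind their classical histochemical stain. They were set against the other 3747 cells with at least 1 count of *Csf1r* and fewer than 300 counts of *S100a8* and *S100a9* together, a set meant to hold the remaining macrophages and monocytes without the cells rich in neutrophil transcripts. A narrower comparison used the 511 of these with at least 30 counts of *C1qa*, *C1qb* and *C1qc* together, here called C1q-high cells. The whole scRNA-seq data of the series comprise 31683 cells, the rest being cultured macrophages.

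The study asked whether B-cell precursors give rise to tumor-associated macrophages (TAM). Its 4 tumor libraries hold cells purified by FACS as TAM from as many BALB/c mice that carried 4T1.2 cells, a mammary carcinoma line used as a model of triple-negative breast cancer. The study used young female mice and defined TAM elsewhere by F4/80 and CD11b, while the gate of this sort and any treatment of the mice are not given in the sources used here. There is no group of tumor-free mice. The libraries carry the numbers 2 to 5 in the deposited table and 1 to 4 in the labels, so no library could be tied to a particular mouse or label. Of the 10885 cells, 5030 had 300 or more *S100a8* and *S100a9* counts.

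Osteoclasts are large cells of the monocyte and macrophage lineage that dissolve bone. M-CSF, through its receptor CSF1R, keeps their precursors alive, and RANKL, through RANK, switches on NFATc1, which turns on the genes for fusion, attachment and resorption. The mature cell seals off a patch of bone, acidifies it with a proton pump and chloride channel, and releases cathepsin K and other enzymes into it, a task that depends on many mitochondria. Cells with such genes also occur outside bone, among others in tumors with giant cells.

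The number of osteoclast-like cells was 26 of 3180 cells in library 2, 8 of 2318 in library 3, 18 of 2387 in library 4 and 12 of 3000 in library 5. These are shares of 0.818% (95% exact binomial interval 0.535 to 1.20), 0.345% (0.149 to 0.679), 0.754% (0.448 to 1.19) and 0.400% (0.207 to 0.698). The intervals cover counting error only, and all 4 overlapped. All 4 libraries contained such cells, and with 1 group of mice no comparison of conditions was possible. A sort and a dissociation precede these shares, so they are shares of captured cells and not of the tumor.

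Few cells lay near the thresholds. Members had 7 to 285 counts of *Ctsk*, with a median of 123.5, and 8 to 401 counts of *Acp5*, with a median of 91. Just inside the threshold was a cell with 7 *Ctsk* and 12 *Acp5* counts, followed by cells with 11 and 8 and with 29 and 54. Just outside were 8 cells with 6 to 16 *Ctsk* counts and no *Acp5*, and 53 cells with both genes detected, of which the highest had 4 *Ctsk* and 45 *Acp5* counts. Requiring 3 counts of each gene gave 70 cells and requiring 10 gave 62.

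**Figure D1:**
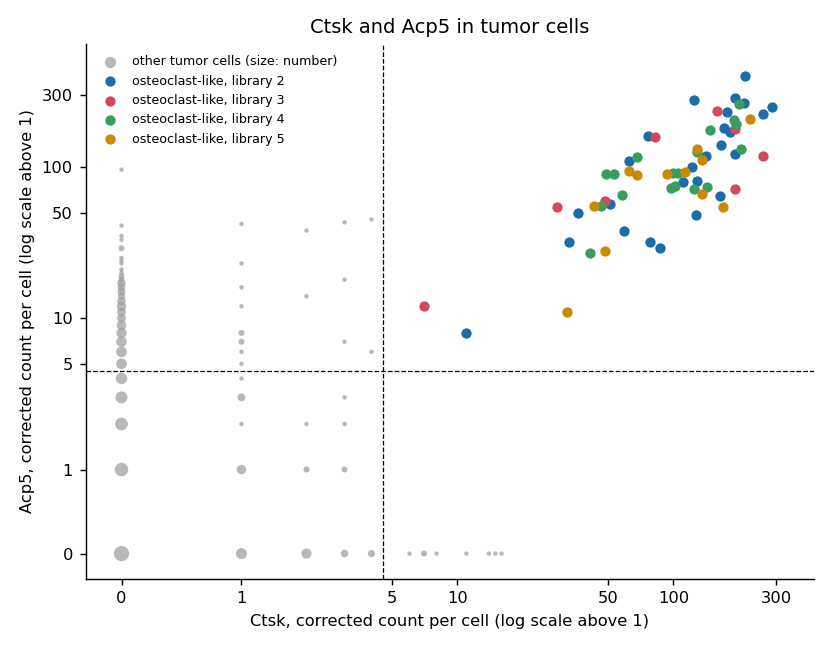
Corrected counts of *Ctsk* and *Acp5* in each of the 10885 tumor cells, on axes that are logarithmic above 1; dashed lines mark the threshold of 5. The 64 osteoclast-like cells, colored by library, sit at 7 to 285 *Ctsk* counts and come from all 4 libraries, with few cells between them and the rest.

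Single *Ctsk* transcripts were spread thinly over the rest of the tumor. Of the other *Csf1r*+ cells, 2.05% had any *Ctsk* count, and of the 5030 cells with 300 or more *S100a8* and *S100a9* counts, a type that should lack the gene, 1.19% did, with a median of 2543 and 1396 detected genes per cell. The osteoclast-like cells themselves did not stand apart in depth after the authors' correction, with a median of 8524 corrected counts and 2439 detected genes, against 8531 and 2543 in the other *Csf1r*+ cells. None of the 64 cell barcodes occurred in another tumor library, while 13 barcodes were shared between libraries among all tumor cells. No step against doublets was applied.

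The values of the 6 marker genes below are descriptions without a test, since *Ctsk* and *Acp5* chose the cells and the other 4 genes were proposed from the same data. In order of libraries 2, 3, 4 and 5, the mean *Ctsk* count per cell was 133, 121, 114 and 105 in osteoclast-like cells and 0.0356, 0.0175, 0.0293 and 0.0250 in the other *Csf1r*+ cells. *Acp5* reached 137, 111, 112 and 85.8 against 1.41, 0.883, 1.09 and 0.788. Cathepsin K transcripts alone made up 1.41% of all corrected counts of the osteoclast-like cells, and no library mean of either gene overlapped between the classes.

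*Mmp9*, a gelatinase that osteoclasts release into the resorption pit, was found in 63 of the 64 cells, at means of 71.3, 64.8, 57.9 and 37.7 against 0.776, 0.752, 0.479 and 0.414 in libraries 2 to 5. *Atp6v0d2*, the osteoclast form of a V-ATPase subunit, was found in all 64, at 11, 11.5, 10.0 and 7.58 against 0.0389, 0.0175, 0.0562 and 0.0190. *Slc9b2*, a sodium/proton exchanger, was found in 61 cells, with a mean of 5.73 ± 1.02 (SD, n = 4 libraries) against 0.00445 ± 0.00302. For each of these genes the osteoclast-like mean of every library lay above all 4 means of the other cells.

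*Mt3*, a metallothionein best known from neurons, divided the class. It was detected in 46 of the 64 cells, with a median of 10 and a highest count of 99, and its library means were 17.3, 19.0, 27.5 and 13.5 against 0.0112, 0.00175, 0.00978 and 0.00832. The other 18 cells had none. *Csf1r*, the M-CSF receptor, was present in all 64 cells although membership did not require it, at means of 5.85, 6.75, 6.11 and 3.92 against 2.69, 2.77, 2.68 and 2.55, where the comparison cells had been required to carry it.

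In the GRCm38 assembly these genes lie at chr3:95499256-95509362 (*Ctsk*), chr9:22126727-22135711 (*Acp5*), chr2:164940780-164955850 (*Mmp9*), chr4:19876841-19922605 (*Atp6v0d2*), chr8:94152607-94154146 (*Mt3*) and chr3:135307700-135345387 (*Slc9b2*).

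**Figure D2:**
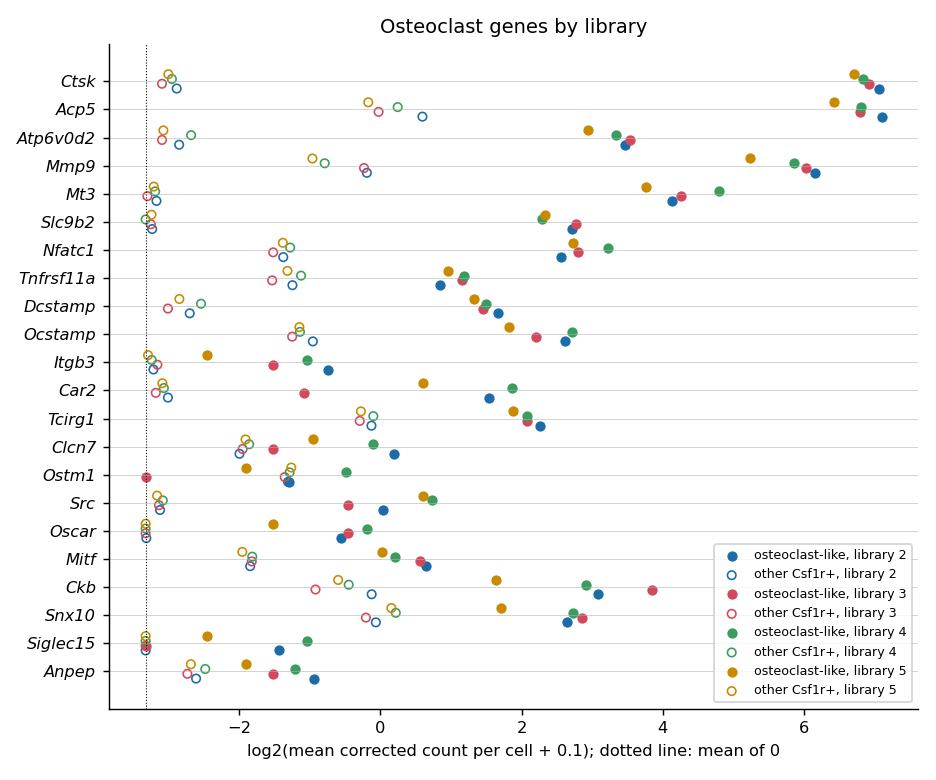
Mean corrected count per cell, as log2(mean + 0.1), of the 6 marker genes and 16 further osteoclast genes in each tumor library; filled points are osteoclast-like cells, open points other *Csf1r*+ cells, and colors are libraries. Filled and open points overlap for *Ostm1*, and for *Siglec15*, which was at 0 in both classes of library 3. *Ctsk* and *Acp5* chose the cells, and the other genes were listed with earlier results of these data known. The share of all tested genes that are as separate was not counted.

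For all other genes the libraries served as replicates. Library 3, with 8 osteoclast-like cells, stayed out of the test, so 3 libraries entered it, and log2(mean + 0.1) was compared with limma with the library as a block. Of 6429 genes tested, 1407 were higher (21.9%) and 1974 lower (30.7%) in osteoclast-like cells at an adjusted p under 0.05, 52.6% in all, and these shares are the background for every list. With a filter at a mean of 0.5 in place of 0.1, which tests fewer genes, 914 were higher and 737 lower. Without library 2, 832 were higher and 1262 lower. Of the 1407 genes called higher, 310 had a mean under the filter of 0.1 in the other cells, and of the 1974 called lower, 1019 had one in the osteoclast-like cells. Such a gene entered the test only through the class where it was high, so for those named below the levels are given as a description, without p. Of the 4724 genes that passed in both classes, 1097 were higher and 955 lower. Folds are ratios of the class means over all 4 libraries, so library 3 enters them. The cells were chosen by *Ctsk* and *Acp5*, so a call says that a gene's level went with those of these genes. The labels do not say which mouse a library came from, and p-values measure the spread between these libraries.

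Of the 16 key osteoclast genes that could be tested, 9 passed the filter in both classes, and 8 of these were higher and none lower. The median log2 difference over all genes tested was -0.15. The list was drawn up with earlier results of these data known and is no independent evidence. *Dcstamp*, *Itgb3*, *Car2*, *Src*, *Oscar*, *Siglec15* and *Anpep* passed the filter only through the osteoclast-like cells, and that they were called higher as well is no result. The calls of *Itgb3*, *Siglec15* and *Clcn7* were lost without the filter, and those of *Itgb3*, *Siglec15* and *Anpep* without library 2. *Calcr*, the calcitonin receptor gene, was not among the 15333 genes with values for the tumor cells, so its expression could not be examined.

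*Nfatc1*, the master transcription factor of osteoclasts, averaged 5.81, 6.88, 9.28 and 6.50 counts per cell in libraries 2 to 5, against 0.286, 0.250, 0.313 and 0.284 (log2 difference 4.18 ± 0.20 SE, limma adjusted p = 0.000234). *Tnfrsf11a*, which encodes RANK, was at 1.69, 2.12, 2.17 and 1.83 against 0.322, 0.246, 0.359 and 0.302 (2.22 ± 0.17, adjusted p = 0.000541). *Oscar*, an immunoglobulin-like receptor that costimulates RANK signals, was detected in 22 osteoclast-like cells, while the other 3747 cells held 1 count in all. Levels of all 3 genes were separate between the classes in every library, but the share of such genes among all tested was not counted. *Oscar* is 1 of the genes described without p. Of the 16 tested genes of RANK and costimulatory signaling, *Tnfrsf11a*, *Oscar* and *Trem2* were higher and 8 were lower, with a median log2 difference of -0.72. The lower ones were the signaling genes *Fcer1g*, *Syk* and *Plcg2*, the NF-κB genes *Nfkb1*, *Nfkb2* and *Relb*, and the inhibitory receptors *Lilrb4a* and *Pirb*. *Relb* and *Lilrb4a* were tested only through the other cells. Among the 13 genes that passed in both classes, 2 were higher and 6 lower.

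*Mitf*, a partner of PU.1 in osteoclasts, was 6.82-fold higher, at 1.46, 1.38, 1.06 and 0.917 against 0.179, 0.183, 0.185 and 0.158 (adjusted p = 0.000738). *Jdp2*, a factor of the AP-1 family, rose 7.27-fold (adjusted p = 0.000345), and *Prdm1*, which silences inhibitors of the lineage, 3.68-fold (adjusted p = 0.00133). Of the 12 tested genes of the list of osteoclast transcription factors, 7 were higher and 3 lower, the lower ones being *Tfe3*, *Tfeb* and *Mef2c*. *Tfeb* was tested only through the other cells. The smallest increases were those of *Spi1*, *Fos* and *Fosl2*, with log2 differences of 0.60, 0.62 and 0.71, and *Fos* was not higher in library 3, which stayed out of the test (6.25 against 8.77). *Mef2c* lost its call without library 2 (adjusted p = 0.125) and without library 4 (adjusted p = 0.0619), and also without the filter (adjusted p = 0.18) and with a pseudocount of 0.02 (adjusted p = 0.122).

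*Mitf* and the AP-1 genes *Fos*, *Fosl2* and *Jdp2* were among the higher ones. Other AP-1 genes were not: *Fosb*, *Junb* and *Jund* were lower and *Jun* was not called. The 250 bases before the start sites of the marker and key genes were searched on both strands. The forms sought were TCACGTG and TCATGTG, E-box forms read by the Mitf family, and TGANTCA, the AP-1 form. GGAAA, the core of NFAT sites, and GAGGAA, a core of PU.1 sites, were searched too but are too frequent to mark, in 55.6% and 23.3% of all windows and in 14 and 5 of the 25 below. The RefSeq promoter table of GRCm38.p6 gave 25 windows for 15 of these genes, of which 3 held an E-box form and 1 the AP-1 form. Over all 32851 windows the shares were 6.28% and 6.75%. The windows of *Ctsk* and *Acp5*, which chose the cells, and of *Clcn7*, a called gene with a match, are shown 5′ to 3′ on the strand of the gene, with the matches in capitals.
Ctsk, chr3:95498960-95499209, plus strand: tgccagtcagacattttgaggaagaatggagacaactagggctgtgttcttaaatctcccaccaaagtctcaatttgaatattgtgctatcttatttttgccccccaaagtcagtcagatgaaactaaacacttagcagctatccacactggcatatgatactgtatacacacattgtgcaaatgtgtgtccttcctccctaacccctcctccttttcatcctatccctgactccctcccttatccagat
Acp5, chr9:22130599-22130848, minus strand, the most downstream of 3 starts: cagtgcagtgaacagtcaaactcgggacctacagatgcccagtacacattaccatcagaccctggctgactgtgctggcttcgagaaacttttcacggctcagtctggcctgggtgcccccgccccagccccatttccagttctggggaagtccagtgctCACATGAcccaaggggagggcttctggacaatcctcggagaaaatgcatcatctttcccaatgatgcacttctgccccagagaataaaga
Clcn7, chr17:25133141-25133390, plus strand, the upstream one of its starts: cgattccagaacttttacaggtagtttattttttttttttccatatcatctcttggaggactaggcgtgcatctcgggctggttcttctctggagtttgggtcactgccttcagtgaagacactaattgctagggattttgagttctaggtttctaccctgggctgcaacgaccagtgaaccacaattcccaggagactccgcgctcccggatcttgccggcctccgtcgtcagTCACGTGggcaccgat
The match of *Acp5* begins 90 bases and that of *Clcn7* 16 bases before the start, and the window of *Ctsk* held neither form. The windows of the other *Acp5* starts held no E-box or AP-1 form. These are matches of letters and not measured binding.

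The genes that restrain osteoclast formation went the other way as a list. All 12 tested inhibitors were lower, 4 of them tested only through the other cells, with a median log2 difference of -2.16, and of -2.47 with the gene undetected in osteoclast-like cells set at its limit of 3 counts. *Irf8*, whose loss is known to boost osteoclast formation, fell to 0.308, 0, 0.167 and 0.0833 from 2.39, 1.78, 2.12 and 2.38 (log2 difference -3.14 ± 0.26, adjusted p = 0.000618). *Cebpb*, a factor of inflammatory macrophages, was 29.6-fold lower, at 0.346, 1, 0.722 and 0.5 against 13.9, 22.3, 19.0 and 20.8 (adjusted p = 0.00018). *Maf* also belongs to the macrophage list and *Nr4a1* to the immediate-early list, most genes of which were lower as well.

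Genes for cell fusion did not move together. *Dcstamp* and *Ocstamp*, the membrane proteins required for osteoclasts to fuse, were higher, *Dcstamp* at 3.08, 2.62, 2.72 and 2.42 against 0.0541, 0.0244, 0.0721 and 0.0392 and *Ocstamp* 14.1-fold (adjusted p = 0.000413). *Siglec15*, a sialic acid receptor of osteoclasts, was detected in 14 of the 64 cells and in none of the other 3747 cells. Its mean was at least 232-fold above the limit that 3 counts over those cells would set. In contrast, *Adam8* was 30.5-fold and *Ninj1* 7.80-fold lower, and in all 3 of 9 tested fusion genes were higher and 4 lower. *Dcstamp* and *Sh3pxd2a* passed the filter only through the osteoclast-like cells and *Cd81* only through the other cells. Among the 6 fusion genes that passed in both classes, 1 was higher and 3 were lower. The tetraspanin *Cd9* and *Sirpa* were not called in this comparison.

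Most subunits of the proton pump were higher. Of 17 tested V-ATPase subunits, 12 were higher and 2 lower, with a median log2 difference of 1.71. *Atp6v1b2* averaged 10.8, 11.4, 13.9 and 8 against 1.23, 1.29, 1.29 and 1.18 (log2 difference 3.01 ± 0.21, adjusted p = 0.000446). *Tcirg1*, the a3 subunit that carries the pump to the ruffled border and is mutated in osteopetrosis, was 5.34-fold higher (adjusted p = 0.000541). The a1 and a2 subunits, *Atp6v0a1* and *Atp6v0a2*, which serve other membranes, were the ones that fell, by 1.28 and 0.78 on the log2 scale. Both were tested only through the other cells, so their calls are no result. Among the 15 subunits that passed in both classes, 12 were higher and none lower. Next to the raised osteoclast form *Atp6v0d2*, the widespread form *Atp6v0d1* had log2 difference -0.62 (adjusted p = 0.0566).

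The rest of the acid machinery included *Car2*, carbonic anhydrase II, which supplies the protons. It was uneven: 36 of the 64 cells had it, and the means were 2.81, 0.375, 3.56 and 1.42 against 0.0244, 0.0105, 0.0196 and 0.0178. The bicarbonate/chloride exchanger *Slc4a2* rose 14.2-fold (adjusted p = 0.000301), the phosphate-linked sugar transporter *Slc37a2* 16.2-fold (adjusted p = 0.000322), and the sorting nexin *Snx10* 6.2-fold (adjusted p = 0.00174). *Clcn7*, the chloride/proton exchanger, was 3.89-fold higher (adjusted p = 0.00533; 0.0525 without the filter on low values). Its partner *Ostm1* was the one key gene not called, at 0.308, 0, 0.611 and 0.167 against 0.304, 0.291, 0.311 and 0.317 (adjusted p = 0.892). Of the 10 tested genes of acid and ion transport 6 were higher and 2, the calcium channel *Itpr2* and the chloride/proton exchanger *Clcn5*, lower, while *Ostm1* and *Rab7* were not called. *Car2* passed the filter only through the osteoclast-like cells and *Clcn5* only through the other cells. Among the 8 genes that passed in both classes, 5 were higher and 1 was lower.

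Among the enzymes, *Mmp14*, a membrane-bound collagenase, was at 7.96, 7.12, 9.44 and 5.83 against 1.23, 0.634, 0.971 and 0.847 (log2 difference 2.80 ± 0.20, adjusted p = 0.00047). *Hexa*, a subunit of a lysosomal hexosaminidase, was 4.89-fold higher (adjusted p = 0.000628). None of the other cathepsins on the list was higher: *Ctsc* was 13.1-fold lower, *Ctsl* 3.47-fold and *Ctsb* 1.86-fold lower, and *Ctsd* and *Ctsz* had log2 differences of 0.00 and 0.18 (adjusted p = 0.991 and 0.392). In all, 6 of 11 tested resorption enzymes were higher and 3 lower. The call of *Ctsl* was lost with thresholds of 3 counts (adjusted p = 0.0647).

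Attachment genes were mixed, with 8 of 21 higher and 5 lower. *Itgb3*, *Src* and *Cttn* passed the filter only through the osteoclast-like cells and *Vav3*, a lower one, only through the other cells. Among the 16 genes that passed in both classes, 5 were higher and 4 lower. *Src*, the kinase without which osteoclasts form no ruffled border, averaged 0.923, 0.625, 1.56 and 1.42 against 0.0152, 0.0140, 0.0183 and 0.0119. Of the vitronectin receptor, *Itgav* was 6.13-fold higher (adjusted p = 0.000502), and *Itgb3* was found in 13 cells, at 0.5, 0.250, 0.389 and 0.0833 against 0.00792, 0.0122, 0.00611 and 0.00238. *Pstpip1*, *Cttn* and *Actn1*, which act on the actin of podosomes, were 6.69-, 35.9- and 24.9-fold higher (adjusted p = 0.000447 for *Pstpip1* and 0.000234 for *Actn1*). *Plaur*, the urokinase receptor, had the largest decrease in the list, by 3.79 on the log2 scale.

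The mitochondrial genes rose almost as a block. Of 74 nuclear genes for oxidative phosphorylation, 72 were higher and none lower, with a median log2 difference of 1.53, and the other 2, *Ndufa1* and *Ndufv3*, had log2 differences of 0.48 and 0.41. Their summed level was 443 to 473 counts per cell over the 4 libraries, against 156 to 158 in the other *Csf1r*+ cells. All 13 genes encoded in mitochondria were higher, by a median of 0.96. Mitochondrial transcripts made up 5.27% of the counts of osteoclast-like cells and 3% of those of the others. A raised mitochondrial share also marks damaged cells, and its part in these values was not tested.

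*Cyc1*, cytochrome c1, was 8.10-fold higher at 5.38, 6.62, 5.50 and 4.83 against 0.765, 0.681, 0.643 and 0.671 (adjusted p = 0.000374), and *Chchd10*, a protein of the mitochondrial cristae, 33.6-fold (adjusted p = 0.000179). *Ppargc1b*, the coactivator that drives mitochondrial growth in osteoclasts, was 47.4-fold higher. *Tfrc*, the transferrin receptor that brings in the iron, was at 5.19, 5, 4.83 and 4.67 against 0.135, 0.178, 0.101 and 0.108 (log2 difference 4.54 ± 0.17, adjusted p = 0.000178). The creatine kinase *Ckb* was 13.5-fold and the creatine transporter *Slc6a8* 19.8-fold higher (adjusted p = 0.000783 and 0.000304). Of the 9 tested energy and creatine genes 5 were higher and 4 lower, *Gatm*, which makes the precursor of creatine, *Slc7a11*, *Slc16a3* and *Slc2a1*. *Ppargc1b* passed the filter only through the osteoclast-like cells, and *Gatm* and *Slc7a11* only through the other cells. Among the 6 genes that passed in both classes, 4 were higher and 2 lower.

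Of 19 tested glycolytic and hypoxia genes, 11 were lower and 1, *Hk1*, higher. The other 7, the enzyme genes *Gpi1*, *Aldoa*, *Tpi1*, *Pgk1*, *Pgam1*, *Eno1* and *Ldha*, were not called. The glucose transporter *Slc2a1* was 14.9-fold lower, at 0.269, 0.250, 0.111 and 0.0833 against 2.66, 2.97, 2.44 and 2.56 (adjusted p = 0.000456). The lactate exporter *Slc16a3* fell by 3.98 on the log2 scale, and the hypoxia-induced *Ero1l*, *Egln3* and *Vegfa* by 3.08, 2.75 and 2.39. *Egln3* was tested only through the other cells. *Gapdh* was 1.54-fold lower and *Ldha* had a log2 difference of -0.15 (adjusted p = 0.0456 and 0.487).

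Among secreted factors, *Pdgfa* and *Pdgfb*, growth factors for mesenchymal cells, were 45.1-fold and 11.5-fold higher. *Sema4d*, through which osteoclasts restrain osteoblasts, was 2.41-fold higher (adjusted p = 0.00546). *Tgfb1* was 4.29-fold lower (adjusted p = 0.00114). Of the 11 tested genes of this list 5 were higher and 5 lower. *Pdgfa* and *Pdgfb* passed the filter only through the osteoclast-like cells, and *Timp1* and *Csf1*, both lower, only through the other cells. Among the 6 genes that passed in both classes, 3 were higher and 3 lower. *Ccl9*, a chemokine typical of osteoclasts, was the only one of 16 tested chemokines to be higher, while 14 were lower, 8 of them tested only through the other cells. *Ccl9* was at 5.50, 4.25, 7.89 and 7.58 against 4.32, 4.39, 4.20 and 4.66 (adjusted p = 0.0381), and it was not higher in library 3. Within the class it fell as *Ctsk* rose (Spearman's rho -0.51). It averaged 8.56 in the 32 cells with 122 or fewer *Ctsk* counts and was detected in all 32. In the 32 cells with 125 or more it averaged 4.25 and was detected in 18.

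**Figure D3:**
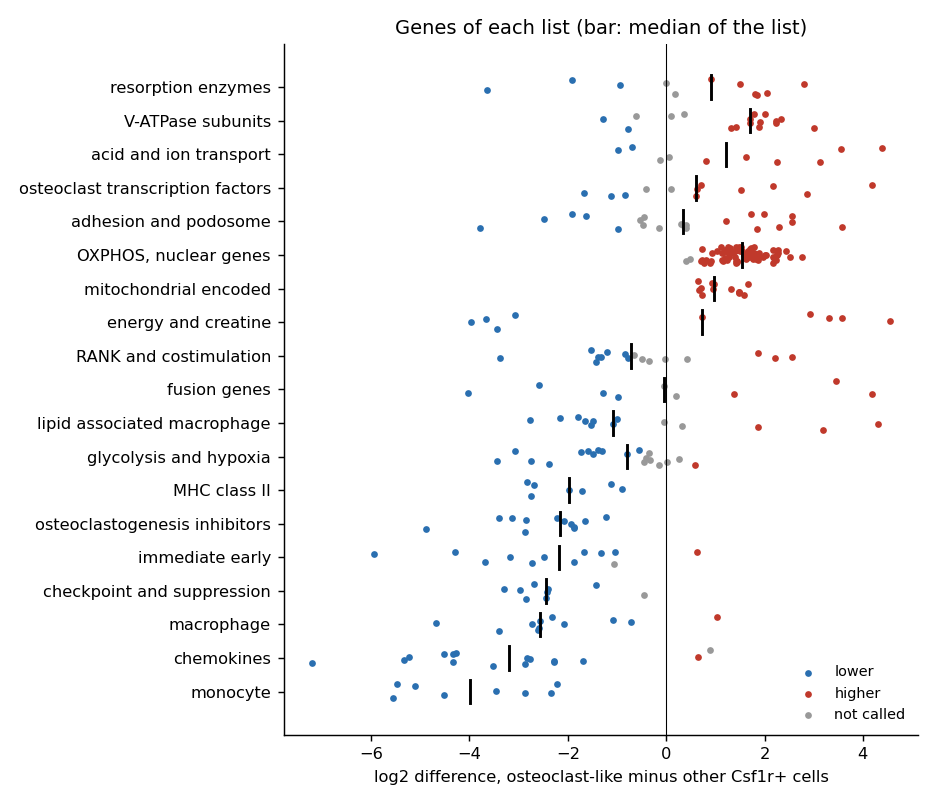
Log2 difference between osteoclast-like and other *Csf1r*+ cells for each tested gene of 19 gene lists, colored by the call at an adjusted p under 0.05; black bars are list medians. Oxidative phosphorylation genes lie to the right (median 1.53), and monocyte genes to the left (median -4.0), while fusion and attachment genes fall on both sides. Of the 8 monocyte genes, 7 were tested only through the other cells, where they were high.

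The largest increases among all tested genes, in addition to *Nfatc1*, *Dcstamp*, *Car2*, *Tfrc* and *Chchd10*, were led by *Bdh2*. *Bdh2* was found in 61 cells, at 3.35, 2.75, 3.83 and 4.25 against 0.0145, 0.00349, 0.0257 and 0.00357, and like *Dcstamp*, *Car2*, *Kbtbd11*, *Pdgfa*, *Adcy3* and *Cyp2s1* it passed the filter only through the osteoclast-like cells. *Lpl*, lipoprotein lipase, was at 5.19, 3, 5.11 and 5.25 against 0.257, 0.0698, 0.202 and 0.0773 (log2 difference 4.31 ± 0.25, adjusted p = 0.00032). Also among them were *Kbtbd11*, *Pdgfa*, *Adcy3*, *Cyp2s1*, *Actn1*, *1110008P14Rik* and the semaphorin and VEGF coreceptor *Nrp2*, each 16.5- to 104-fold higher and higher in all 4 libraries. An increase in each of the 3 tested libraries was a condition of this choice.

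*Lpl* belongs to the genes of lipid-associated macrophages, but most of that list did not follow it. Only *Lpl*, *Trem2* and the tetraspanin *Cd63* of its 13 tested genes were higher, and 8 were lower, *Spp1*, *Fabp5*, *Lgals3*, *Plin2*, *Apoe*, *Lipa*, *Apoc1* and *Nceh1*, the last without a call when no filter was set. *Apoc1* and *Nceh1* were tested only through the other cells. *Cd63*, a membrane protein of late endosomes, averaged 15.5, 15.9, 13.3 and 12.8 against 1.98, 1.28, 1.33 and 1.10 (adjusted p = 0.000342). *Gpnmb*, often named as an osteoclast gene, was detected in 3 cells (adjusted p = 0.697).

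The largest decreases included those of *Lyz2*, *Cd14*, *Il1b* and *Cxcl2*. *Lyz2*, lysozyme, was detected in 5 of the 64 osteoclast-like cells and in 3635 of the other 3747, at 1.38, 0, 1.11 and 0 against 49.7, 61.3, 50 and 58.3 counts per cell (log2 difference -6.54 ± 0.82, adjusted p = 0.00195). *Cd14*, the coreceptor for endotoxin, was at 0.0385, 0, 0.111 and 0.0833 against 13.5, 14.7, 15.7 and 16.3. *Il1b* was 75.1-fold lower and *Cxcl2*, a neutrophil attractant, 35-fold. These genes were chosen for the size of their decrease, so that no library mean overlapped is no further result. *Cd14* was tested only through the other cells.

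Some transcripts were missing altogether. *Saa3*, an acute-phase protein, *Ptgs2*, the inducible cyclooxygenase, and *Fn1*, fibronectin, had no count in any osteoclast-like cell, which allows a mean of up to 0.0469 counts per cell, and they were therefore at least 159-, 89.0- and 73.8-fold lower. *Ifitm1*, *Slpi*, *Ier3*, *Alox5ap*, *Thbs1*, *Plac8*, *Srgn*, *Ccr2* and *Wfdc17* completed, with those above other than *Fn1*, the 15 largest decreases. A decrease in each of the 3 tested libraries was a condition of this choice, and all were lower in library 3 as well. *Saa3*, *Ptgs2*, *Ier3* and *Ccr2* were among those tested only through the other cells. The 8 monocyte genes tested were all lower, but 7 of them were tested only through the other cells.

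Macrophage genes were reduced to varying degrees. *Adgre1*, which encodes F4/80, had no count in the 64 osteoclast-like cells and was detected in 1258 of the other 3747, a difference of at least 10.6-fold. The activating Fc receptor *Fcgr1* fell by 4.68 on the log2 scale, and *C1qb* by 2.72 (adjusted p = 0.00491; 0.0658 without the filter on low values). All 30 *C1qb* counts of the class were in 5 cells. *Cd68*, in contrast, was 2.35-fold higher, at 9.38, 11.5, 8.44 and 7.67 against 4.43, 3.50, 3.84 and 3.95. It was the only one of 11 tested macrophage genes to be higher, the other 10 being lower, of which *Adgre1* and *Fcgr1* were tested only through the other cells. Against C1q-high cells *Cd68* was not called. Chosen after their values were seen, *Itgam* (CD11b) was found in 21 osteoclast-like cells and *Ptprc* (CD45) in 38, and both were lower, 6.13- and 6.60-fold.

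The 7 genes of MHC class II presentation were all lower, with a median of -1.98. *H2-Ab1* averaged 1.5, 5.25, 2.44 and 1.92 against 14.2, 10.4, 13.9 and 14.6 (log2 difference -2.83 ± 0.21, adjusted p = 0.00049). Of 9 tested genes of checkpoints and suppression, 8 were lower, but *Havcr2*, *Cd80*, *Cd86* and *Lgals9* were tested only through the other cells. *Havcr2* was lower by 2.85 and *Cd86* by 3.29 on the log2 scale. Of the 5 genes that passed in both classes, 4 were lower, among them *Cd274*, which encodes PD-L1, by 2.69. *Arg1*, arginase, was 7.44-fold lower (adjusted p = 0.001), and this call was lost with thresholds of 3 counts (adjusted p = 0.194). None of the 10 tested interferon genes was higher and 5 were lower, of which *Ifit2* was tested only through the other cells.

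Dissociation of tissue is known to induce immediate-early and heat shock genes. Of 12 immediate-early genes 10 were lower and *Fos* was higher, and of 6 tested heat shock genes *Hspa1a*, *Hspa1b* and *Hsph1* were lower, all tested only through the other cells, and the other 3 not called. *Atf3* fell by 4.29 and *Hspa1b* by 4.22 on the log2 scale. The immediate-early genes *Ier3* and *Atf3* were likewise tested only through the other cells. The summed level of the immediate-early list was 16.5 to 21.2 counts per cell over the libraries, against 56.7 to 70.8 in the other *Csf1r*+ cells, while that of the heat shock list overlapped, at 17.5 to 23.4 against 22 to 35.5.

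Markers of other cell types were at or near 0 in the osteoclast-like cells. The 6 T and NK cell genes and the 7 fibroblast genes in the table had no count, nor had *Pecam1*, *Cdh5* and *Kdr* of endothelium or *Epcam* and *Krt8* of epithelium. The epithelial genes *Krt7* and *Krt18* were detected in 4 cells and 1 cell. The summed level of the epithelial list was 0 to 0.125 counts per cell over the libraries, against 0.0269 to 0.0606 in the other *Csf1r*+ cells. Of the osteoblast and cartilage list only *Runx2* and *Alpl* were in the table, with 1 count of *Runx2* in all osteoclast-like cells. A single cell, in library 5, held 3 or more counts of B-cell genes, among them 10 of *Cd79a*. The dendritic list had 7 of 8 genes at 0 and the neutrophil list 4 of 8, the latter at a summed level of 0.346 to 7 counts per cell over the libraries, highest in library 3, against 29.5 to 57.0 in the other *Csf1r*+ cells. No other member held 3 or more counts of the T/NK, B-cell, fibroblast or epithelial list, and leaving this 1 cell out changed the call of none of the 126 named genes. The 7 members with 3 or more counts of neutrophil genes, at most 34, and the 2 with as many of monocyte genes, at most 14, were kept, and their part in the results was not tested.

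Levels varied between the osteoclast-like cells, and they are described here along *Ctsk*, a gene of the rule, without a test. Across the 64 cells, of 1841 genes found in at least 32 of them, *Cd63* had the highest rank correlation with *Ctsk* (Spearman's rho 0.83), followed by *Cd68* (0.81), *Hexa* (0.79), *Mmp9* (0.78) and *Acp5* (0.75). The lysosomal genes *Ctsa*, *Npc2* and *Glb1*, the cathepsin inhibitor *Cst3* and the pump subunit *Atp6v1g1* were also among the 15 highest, at 0.65 to 0.71. The correlations of these 15 genes were positive within each of the 4 libraries. They describe cells that share libraries and a common correction of depth, under which the total corrected count also went with *Ctsk* (0.57).

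*Snrpb*, a splicing protein, had the lowest correlation with *Ctsk* (-0.79), followed by *Ptma* (-0.76), *Hsp90ab1* (-0.75) and *Serbp1* (-0.74). The nucleolar genes *Ncl* and *Npm1*, the nuclear transport gene *Ranbp1* and several ribosomal protein genes were also among the 15 lowest, negative in each library. *Npm1* averaged 18.8 counts in the 32 cells with 122 or fewer *Ctsk* counts and 7.09 in the 32 with 125 or more. *Mmp9* went from 29.1 to 91.7 between the same cells.

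Cells with cell cycle transcripts sat almost wholly on the low side. Of the 32 cells with less *Ctsk*, 16 held 3 or more counts of the 13 cell cycle genes, and of the 32 with more *Ctsk*, 1 did. *Birc5*, survivin, was detected in 15 of the former and 1 of the latter, and *Mki67* in 11 and 1. The 17 cells with such counts came from all libraries, 8 of 26 in library 2, 2 of 8 in library 3, 2 of 18 in library 4 and 5 of 12 in library 5. Against the other *Csf1r*+ cells, 1 of 8 tested cell cycle genes was higher (*Ccnb2*), 1 lower (*Pcna*; adjusted p = 0.0142, 0.0646 without library 2) and 6 not called, with a median log2 difference of 0.59. The summed level of the list was 3.69, 2.75, 1.39 and 7.75 counts per cell in libraries 2 to 5, against 1.73, 3, 2.07 and 1.98, so the classes overlapped.

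*Mt3* followed the opposite course. It was detected in 17 of the 32 cells with less *Ctsk* and 29 of the 32 with more, at means of 5.84 and 33.5 counts. Of the 18 cells without *Mt3*, 11 held 3 or more cell cycle counts, and of the 46 with it, 6 did. *Ckb* (rho 0.57), *Csf1r* (0.57), *Dcstamp* (0.53) and *Ocstamp* (0.48) also went with *Ctsk*, whereas *Nfatc1* (0.19), *Tfrc* (0.14) and *Car2* (-0.03) showed little relation to it. *Nfatc1* was detected in 31 cells of the former and 29 of the latter.

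**Figure D4:**
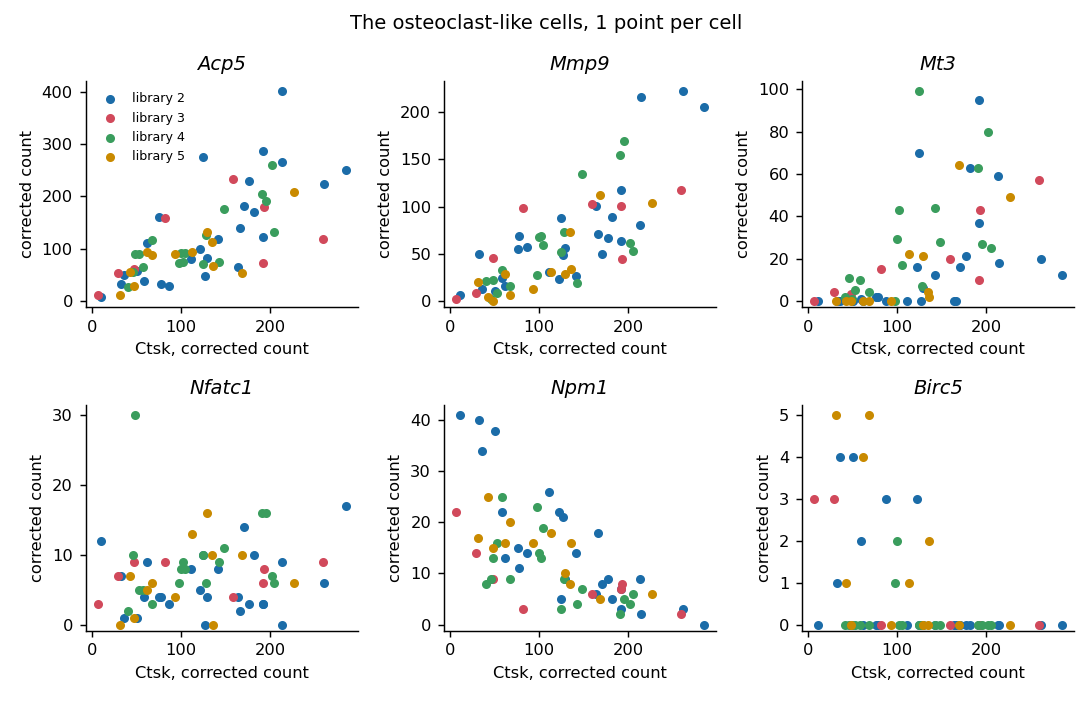
Corrected counts of 6 genes against those of *Ctsk* in each of the 64 osteoclast-like cells, colored by library. *Acp5* and *Mmp9* increase with *Ctsk*, *Mt3* is at 0 in 18 cells, *Npm1* decreases, and all but 1 of the cells with *Birc5* have 122 or fewer *Ctsk* counts.

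Against C1q-high cells, macrophages rich in complement transcripts, 1016 of 6280 tested genes were higher (16.2%) and 1420 lower (22.6%) in osteoclast-like cells, 38.8% in all. With a filter at a mean of 0.5, 731 were higher and 508 lower, and without library 2, 672 and 1063. These cells are part of the first comparison, so the counts are not independent. *Acp5*, given without a test, was less contrasted here, since C1q-high cells averaged 3.01, 4.94, 3.53 and 2.74 counts per cell in libraries 2 to 5, while *Ctsk* was at 0.0157, 0.0909, 0.0270 and 0.0118. Of the 16 key osteoclast genes tested, 10 passed the filter in both classes and 8 of these were higher, *Clcn7* without a call when no filter was set (adjusted p = 0.0598). *Nfatc1* differed by 4.49 ± 0.23 on the log2 scale (adjusted p = 1.28e-05).

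Some osteoclast genes were shared in part with the C1q-high cells. *Ckb* was at 2.16, 1.48, 2.57 and 1.48 in them, leaving a log2 difference of 1.45 ± 0.26 (adjusted p = 0.00258). *Mmp14* was at 1.91, 2.15, 2.14 and 2.27, with a log2 difference of 1.81 ± 0.25 (adjusted p = 0.000739). *Anpep*, an aminopeptidase found above at a mean of 0.293 against 0.0625 over the libraries, had a log2 difference of 0.04 ± 0.31 here (adjusted p = 0.936).

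The main groups stood here much as before. Of 74 nuclear oxidative phosphorylation genes 71 were higher and none lower, and of 17 V-ATPase subunits 12 were higher and 2 lower. The 2 lower subunits were tested only through the C1q-high cells. Only 7 of the 13 genes encoded in mitochondria were called, all higher. *S100a4*, a calcium-binding protein, was higher in the osteoclast-like cells (log2 difference 4.69 ± 0.24, adjusted p = 1.28e-05). *Cd200*, a ligand that restrains myeloid cells, averaged 2.11 against 0.0016 and passed the filter only through the osteoclast-like cells. Among the most reduced, the chemokine *Cxcl9* had no count in the osteoclast-like cells and was at least 113-fold lower, and the chemokine *Ccl8* and the allograft inflammatory factor *Aif1* fell by 5.4 and 5.65 on the log2 scale. *Cxcl9* and *Ccl8* were tested only through the C1q-high cells, so their calls are no result.

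The cultured macrophages, made from BM B cells (B-MF) or monocytes (Mo-MF) in medium of 4T1.2 cells, were searched with the same thresholds. Of 10235 Mo-MF cells 15 met them, 10 and 5 in the 2 libraries, and of 10563 B-MF cells none, which allows a share of up to 0.0284%. Only 1 library held 10 such cells, so no test was made. The table was normalized on its own, so its levels are not set against those of the tumor. The median total was 19059.5 corrected counts in cultured cells and 7966 in tumor cells. The same thresholds therefore asked for a smaller share of the counts of a cultured cell.

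The 15 cultured cells had 5 to 26 *Ctsk* counts, with a median of 8. None had a count of *Mt3*, *Dcstamp*, *Car2* or *Siglec15*. Since all were Mo-MF, their means are set beside those of all cells of the 2 Mo-MF libraries. *Mmp9* averaged 0.400 against 1.09 and 0.972, *Ckb* 4.6 against 4.98 and 4.90, and *Snx10* 0.8 against 1.04 and 0.992. *Tnfrsf11a* was at 0.533 against 0.508 and 0.514, and *Nfatc1* at 0.467 against 0.394 and 0.373. Higher means were found for *Tcirg1* (7.73 against 5.09 and 5.11), *Anpep* (7.27 against 5.82 and 5.63), *Src* (0.400 against 0.206 and 0.210, in 5 of the cells) and *Itgb3* (0.400 against 0.107 and 0.125, in 2). *Atp6v0d2* was present in all 15 at a mean of 13.4 against 7.71 and 7.88, and it was common in the cultures at large, in 62.1% and 71.4% of B-MF cells and 85.5% and 86.1% of Mo-MF cells.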

How the data were processed

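The tumor data are single-cell RNA-seq of 4 libraries (10x Genomics 3′ chemistry), which the authors counted with Cell Ranger and normalized with SCTransform in Seurat. The authors deposited natural log values, ln(1 + corrected count), for 15333 genes in 10885 tumor cells and, in a table normalized separately, 15855 genes in 20798 cultured cells. Corrected counts were recovered as round(exp(value) - 1), so differences in depth between cells are already adjusted and raw depth is not known. Accessibility peaks of the series were not used here, and 0 columns were left unmapped. The tools named in the submitters' processing notes are Cell Ranger, STAR, cutadapt, BWA and MACS2, with mm10 as build.

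Cells were classed by thresholds of 5 for *Ctsk* and *Acp5*, 1 for *Csf1r*, 300 for *S100a8* and *S100a9*, and 30 for the C1q genes. Class means per library were compared as log2(mean + 0.1) with limma 3.58.1 in R 4.3.3, with library as a block and Benjamini-Hochberg adjustment over all genes whose average class mean was at least 0.1. Both classes come from the same library, which is the pairing. A library entered with 10 or more cells of each class, so 3 of 4 did. The rule genes and markers were left out of the counts. *C1qa*, *C1qb* and *C1qc*, which chose the C1q-high cells, stayed in that comparison. That they were called lower there is no result. The script was tested on simulated data. Tables and exact intervals (95%) were made with Python 3.11.15, pandas 2.3.3 and scipy 1.17.1. A limit for a class without counts is 3 counts over its cells. Intervals and limits cover counting error only.

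The members and gene lists were chosen with earlier results of these data known. Named are the rule genes, markers and key genes, up to 4 called genes of each other list by size of difference, and the 15 largest differences in each direction. Other genes are named as members of a list, or for how they varied with *Ctsk* in the class, and were chosen after their values were seen. Alternatives changed the thresholds, comparison cells, filter, pseudocount, scaling, limma settings, the block and the libraries. The planned test in cultured cells could not be made. Results of a few named genes are not reported here.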

Additional observations from a re-analysis of the deposited data

Results flagged for a closer look

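Of 50 results examined for a library far from the others, 1 stood out. The log2 difference of *Slpi*, a secreted protease inhibitor, between osteoclast-like and other *Csf1r*+ cells was -4.92 in library 4 and between -6.72 and -6.57 in the other 3 libraries. The gap took up 0.914 of the whole range. In groups of 4, chance sets a sample apart in this way in about 1 of 20 cases.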

How the results depend on the processing

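With 1 library left out in turn, 832 to 1230 genes were higher and 1262 to 1776 lower against the other *Csf1r*+ cells, and 672 to 911 higher and 1063 to 1236 lower against C1q-high cells, each lowest without library 2, which leaves 2 libraries. A filter at a mean of 0.5, which tests fewer genes, gave 914 higher and 737 lower, and 731 and 508 against C1q-high cells, so that more genes were higher than lower. Without a filter 1267 were higher and 2755 lower, and 923 and 1542 against C1q-high cells. With a pseudocount of 0.02, 1220 genes were higher and 1571 lower, and 773 and 984 against C1q-high cells. Both classes come from the same library. Without this pairing (no replicate block) 1534 genes were higher and 2083 lower, and 1099 and 1426 against C1q-high cells. With library 3 included, an alternative chosen after seeing the data, 1510 were higher and 2077 lower, and 1062 and 1487 against C1q-high cells. *Ostm1*, which was not called, changed sign against the other *Csf1r*+ cells without library 4 (-0.32), with library 3 (-0.45) and with thresholds of 3 (-0.012), and against C1q-high cells without library 4 (-0.20) and with library 3 (-0.25). *Anpep*, not called against C1q-high cells, was at -0.39 without library 2. With single libraries left out, *Ostm1* ranged from -0.32 to 0.40 against the other *Csf1r*+ cells and from -0.20 to 0.75 against C1q-high cells, and *Anpep* from -0.39 to 0.32 against the latter. The cause was not tested. The share of osteoclast-like cells among all tumor cells was 0.588%, and 0.643% and 0.570% with thresholds of 3 and 10. The alternatives for cultured cells were not run, since there was no test. Raw depth per cell is not known, so the depth behind low genes cannot be given.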
